A study of Mus musculus with 3 samples.

Results

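Keratins 5, 8, 10, 12, 13, 14, 15, 16, 17 and 18 are 10 keratin genes of epithelial cells, and their binding by SRF, the serum response factor, was examined in whole mouse cornea. Every merged region whose deposited gene list names 1 of these genes was taken, which gave 9 of 31850 regions. The members' rows in the gene table were read as well. Of the 10 genes, 7 were assigned a region, and Krt15, Krt16 and Krt17 were assigned none. Among 21035 RefSeq genes with a curated coding transcript, 51.6% had a mutant interval and 68.1% a wildtype interval.

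Keratins are the intermediate filament proteins of epithelia. A type I keratin pairs with a type II keratin, and the filaments attach to desmosomes and hemidesmosomes. Krt5 and Krt14 form the filaments of basal cells in stratified epithelia, Krt12 is the keratin characteristic of the corneal epithelium, and Krt8 and Krt18 form those of simple epithelia. SRF binds a short DNA sequence called the CArG box and is known for its control of actin cytoskeleton genes, with the MRTF cofactors, and of immediate early genes, with the TCF cofactors.

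Chromatin immunoprecipitation followed by sequencing was carried out with an SRF antibody on whole cornea of mice of about 8 weeks of age, on a mixed strain background and without treatment. The groups were Dstn-corn1 mutant corneas, in which destrin, a protein that depolymerizes actin, is not functional, and wildtype corneas, with 1 library each. An input library was sequenced without antibody, and its values were not used here. How many mice went into each library is not stated in the labels, and the growth protocol names mutant mice for all libraries, so the genotypes rest on the sample titles. Each genotype has a single library, so differences could not be checked over replicates and carry no p-values. Whole cornea mixes epithelium, stroma and endothelium, so the share of epithelial cells in a library and the binding per epithelial cell cannot be told apart. SRF binding does not measure expression, so the tissue label could not be checked against marker genes.

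Values are heights, the highest signal within a region, in the units of the deposited table. Sequencing depth is unknown, since no read totals were used. The authors called 16399 intervals in the mutant library and 31282 in the wildtype library, and the lowest called height was 9 in each. Across all 31850 regions the median height was 13 in mutant and 28 in wildtype. The log2 ratio, taken as mutant over wildtype with 1 added to each height, had a median of -1.10. No source used here states how the libraries were scaled, so the keratin ratios are read beside this median. The 3 regions assigned to Dstn, the mutated gene, were listed at 0 in mutant and at 35, 11 and 13 in wildtype, which does not contradict the titles.

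The gene starts of the keratins held no SRF region in either library. Of the 9 regions, 0 lay within 1 kb of any gene start, whereas 22.7% of all regions did. No region overlapped any of the 8 promoter windows that RefSeq lists for 7 of the keratins, each from 250 bases before to 50 bases after a start. Krt15, Krt16 and Krt17 were not among the 7, and RefSeq start sites need not match the authors' gene starts, as at Krt14. The only Krt14 window and a Krt13 window lay inside the gene. No window therefore covered the Krt14 start used for the distances. The nearest region stood 2750 bp from a window at Krt10, 5332 bp at Krt14, 8142 bp at Krt12 and 13171 bp at Krt8.

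The windows were searched for exact matches to the CArG box on both strands, which read the same for this motif, and to TATAAA. Of the 8 windows, 1 held a CArG box, that of Krt12, as did 1.63% of the 32851 RefSeq windows of the same length. The match, CCTATAAAGG, begins 31 bases before the Krt12 start and contains TATAAA. A CArG box overlapping TATAAA stood in 19 of the 32851 windows (0.0578%). Neither this overlap nor the rest of the motif search was among the planned comparisons, so the shares are descriptions only. The window of the neighbouring Krt10 has TATAAA from 26 bases before its start and no CArG box. On the given strand TATAAA was present in 3 of the 8 windows, those of Krt10, Krt12 and Krt8, and in 8.32% of all windows. The Krt8 match begins 1 base before the start and so runs across it. At Krt8 TATAAA also stood on the other strand. Either strand held TATAAA in 13.6% of all windows. The sequences upstream of both starts are shown because only that of Krt12 holds a CArG box and because 4 of the 9 regions flank or lie in these 2 genes. They come from RefSeq (GRCm38.p6, the build also called mm10), both lie on the minus strand, Krt12 at chr11:99422260-99422509 and Krt10 at chr11:99389365-99389614, and they are printed 5′ to 3′. Capitals mark the CArG box in Krt12 and TATAAA in Krt10.
Krt12: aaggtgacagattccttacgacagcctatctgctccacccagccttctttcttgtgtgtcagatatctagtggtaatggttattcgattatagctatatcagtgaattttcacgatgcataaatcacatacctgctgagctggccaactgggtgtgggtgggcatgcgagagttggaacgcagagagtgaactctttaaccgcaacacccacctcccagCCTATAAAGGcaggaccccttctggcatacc
Krt10: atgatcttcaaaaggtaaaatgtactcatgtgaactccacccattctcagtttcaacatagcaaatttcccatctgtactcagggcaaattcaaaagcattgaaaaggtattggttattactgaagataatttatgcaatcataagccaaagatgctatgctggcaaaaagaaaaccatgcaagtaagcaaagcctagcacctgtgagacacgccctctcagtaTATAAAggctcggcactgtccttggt
A match is a run of letters and not a measured site. Sequences of the bound regions themselves were not used here.

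**Figure D1:**
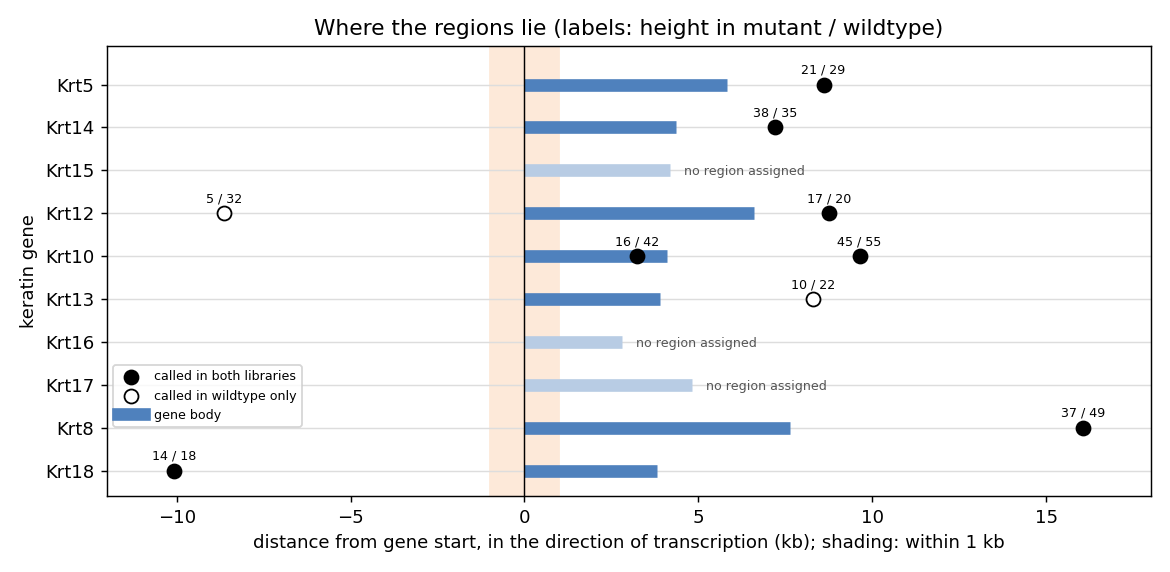
Positions of the 9 regions (circles, at the region centre) relative to the start of each keratin gene, in kb along the direction of transcription, with the gene bodies as bars and the heights in mutant and wildtype above each circle. Filled circles were called in both libraries and open circles in wildtype only; no circle falls in the shaded 1 kb around a start, and Krt15, Krt16 and Krt17 have none.

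The distances showed that 6 of the 9 regions lay downstream of their keratin gene, 2 upstream and 1 inside the gene, as the plot of positions shows. The authors' assignments reached about 10 kb beyond a gene: all but 15 of 35798 pairs of a region and an assigned gene were within that distance of the gene body. A keratin region can therefore stand for another gene of the cluster. Of the 9 regions, 5 also listed a second gene, and in 4 of these the second gene was another keratin. None of the 9 overlapped a CpG island by the authors' count, whereas 23.0% of all regions did.

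Among the keratins of basal cells, Krt5 and Krt14 each had 1 region, and both were called in both libraries. The Krt5 region (chromosome 15, 101703997 to 101704588) was centred 8599 bp past the gene start, 2482 bp beyond the gene body. It was also listed at -9987 bp from the start of Krt6a, a keratin of the hair follicle and of stressed epidermis. Its height was 21 in mutant and 29 in wildtype (log2 ratio -0.45). The Krt14 region (chromosome 11, 100199943 to 100200649) was centred 7214 bp past the start of Krt14 and listed at -7050 bp from that of Krt9, a keratin of palm and sole skin. It reached 38 in mutant and 35 in wildtype (log2 ratio 0.12), and was the only one of the 9 with a greater height in mutant. Of all regions, 3.69% were higher in mutant by any amount. Its average height was also close in the libraries, at 11.7 in mutant and 11.2 in wildtype. Krt15, a further basal keratin, had no region. The region nearest to it was the Krt13 region, 18261 bp from the gene.

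Krt12 had 2 regions, and they differed from each other. The downstream region (chromosome 11, 99413157 to 99413855), centred 8753 bp past the start and shared with LOC101056001, reached 17 in mutant and 20 in wildtype (log2 ratio -0.22). Its average height was greater in mutant, at 9.71 against 8.33 in wildtype. The upstream region (99430651 to 99431139), listed at -8636 bp from the Krt12 start, lay inside Krt20, a keratin of intestinal and urothelial epithelium. It reached 5 in mutant and 32 in wildtype (log2 ratio -2.46), and was called in wildtype only. This was the lowest ratio of the 9, and 2.61% of all regions had a lower one. The average height there was 2.94 in mutant and 17.1 in wildtype.

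Krt10, a keratin of the upper layers of epidermis, also had 2 regions, both called in both libraries. The region beyond the gene (chromosome 11, 99379446 to 99380015) was centred 9634 bp past its start, 5239 bp from the gene body, and was listed at -4827 bp from the start of Krt28, a hair follicle keratin. It was the highest keratin region of each library, at 45 in mutant and 55 in wildtype (log2 ratio -0.28). The mutant height exceeded 97.5% of all regions in that library and the wildtype height 84.8%. The region inside the gene (99385699 to 99386565), centred 3232 bp past the start of a gene 4110 bp long, was the nearest to a keratin start. It reached 16 in mutant and 42 in wildtype (log2 ratio -1.34). On the average height the difference was smaller, at 9.81 in mutant and 15.2 in wildtype (log2 ratio -0.58). The Krt13 region (100112877 to 100113498) was centred 8308 bp past the start of that gene, a keratin of conjunctiva and oral mucosa. It reached 10 in mutant and 22 in wildtype (log2 ratio -1.06), and was called in wildtype only.

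Krt16 and Krt17, keratins known for their rise in wounded and hyperproliferative epithelium, had no region. The region nearest to each was the same 1, assigned to Gm12349, at 32611 bp from Krt16 and 20484 bp from Krt17. It reached 51 in mutant and 83 in wildtype.

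Krt8 and Krt18, the simple-epithelial pair, lie near each other on chromosome 15 and each had 1 region of its own, shared with no other gene and called in both libraries. The Krt8 region (101987859 to 101988723), centred 16051 bp past the gene start and 7988 bp beyond the gene body, reached 37 in mutant and 49 in wildtype (log2 ratio -0.40). The mutant height exceeded 95.2% of all regions and the wildtype height 79.6%. A further region without an assigned gene (101983586 to 101984977) lay 11734 bp from the Krt8 gene body, just outside the reach of the authors' assignment, and was higher, at 45 in mutant and 75 in wildtype. The Krt18 region (102017763 to 102018515), listed at -10077 bp, was 9701 bp from the gene body. It reached 14 in mutant and 18 in wildtype (log2 ratio -0.34).

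**Figure D2:**
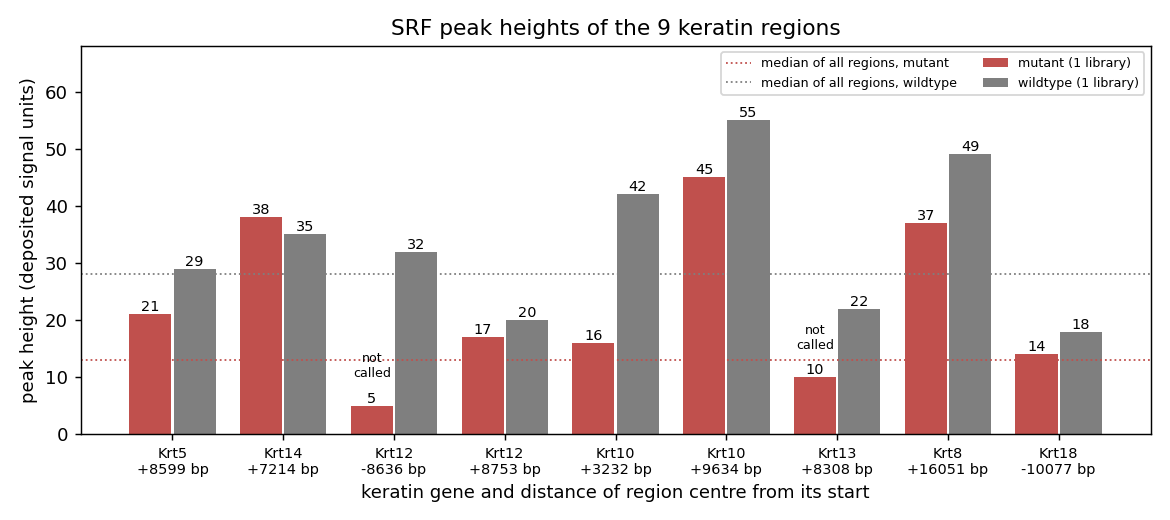
Peak heights of the 9 keratin regions in deposited signal units, with the mutant bar left of the wildtype bar and 1 library each, ordered by gene; dotted lines mark the medians of all regions, 13 in mutant and 28 in wildtype. The bars differ least at Krt14 (38 in mutant, 35 in wildtype) and Krt12 downstream (17 in mutant, 20 in wildtype) and most at Krt10 inside the gene (16 in mutant, 42 in wildtype) and Krt12 upstream (5 in mutant, 32 in wildtype).

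Ordered by height in mutant, the regions ran from Krt10 downstream (45), Krt14 (38), Krt8 (37) and Krt5 (21) to Krt12 downstream (17), Krt10 inside the gene (16), Krt18 (14), Krt13 (10) and Krt12 upstream (5). In wildtype Krt10 downstream (55) and Krt8 (49) were followed by Krt10 inside the gene (42), Krt14 (35), Krt12 upstream (32), Krt5 (29), Krt13 (22), Krt12 downstream (20) and Krt18 (18). With 1 library each, the order of neighbours that differ by a few units has no error to be set against. The median height of the 9 was 17 in mutant and 32 in wildtype.

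Per gene, the deposited table gives the mean height over the assigned regions. It was 30.5 in mutant and 48.5 in wildtype for Krt10, and 11 in mutant and 26 in wildtype for Krt12. For the other 5 genes it equals the height of their single region. A mutant interval was assigned to 6 of the 10 keratins and a wildtype interval to 7, the difference being Krt13. These counts were near the shares of all RefSeq coding genes, 51.6% in mutant and 68.1% in wildtype. Within 1 kb of a start the keratin counts were 0 in mutant and 0 in wildtype, where 21.8% of all these genes had a mutant interval and 33.4% a wildtype interval. With intervals of height 24 or more, the median of all intervals, 3 keratins had one in mutant and 5 in wildtype, where 25.0% of these genes had one in mutant and 53.5% in wildtype.

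The next comparison asked how the height in mutant stood relative to wildtype over the keratin regions. The median log2 ratio of the 9 was -0.40, beside -1.10 over all regions, and 7 of the 9 were above the median of all regions. So were 8 of 10 regions of further type I keratins and 4 of 11 of further type II keratins, described below. Among keratin partners and epithelial regulators 30 of 43 were, and among cell type markers 6 of 9. A height at least 2-fold lower in mutant was found at 3 of the 9 (Krt12 upstream, Krt10 inside the gene and Krt13), against 59.0% of all regions. A height at least 2-fold higher in mutant was found at 0 of the 9, against 0.414% of all regions. Of the 9, 7 were called in both libraries (48.9% of all regions were) and 2 in wildtype only (49.0% of all regions). Calls and ratios come from the same libraries and are not separate measures. Among regions called in both libraries the median was -0.34 for the 7 keratin regions and -0.96 for all 15587, and 1 of the 7 was at least 2-fold lower in mutant, against 48.2%. All regions with an assigned gene but with no CpG island and no start within 1 kb had a median of -1.16 over 16025 regions. They are like the keratin regions in these respects, but were not matched for lying outside a gene or listing a second gene. These are descriptions of 1 library per genotype, and the 9 regions are neither replicates nor independent of each other, since they lie in 2 gene clusters.

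**Figure D3:**
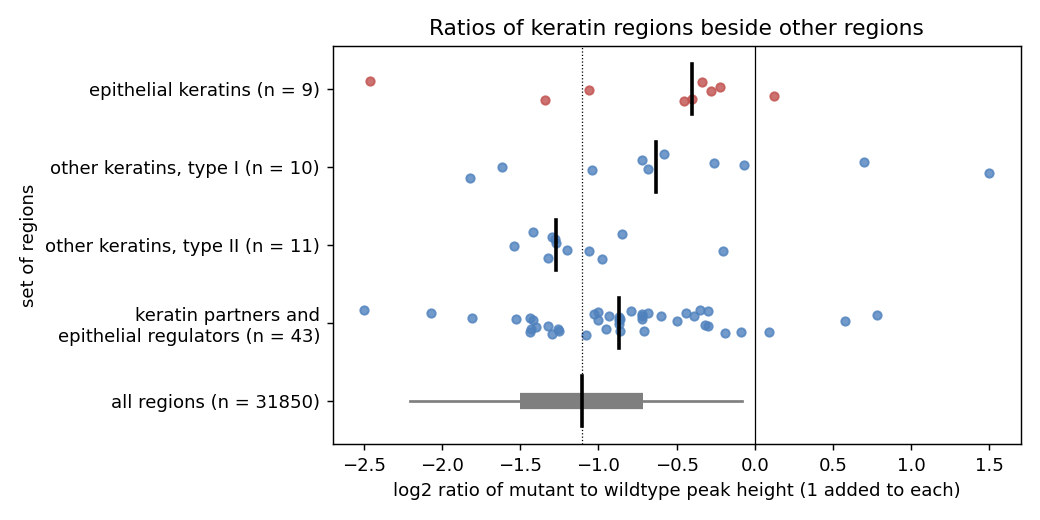
Log2 ratios of mutant to wildtype peak height, with 1 added to each, for the 9 epithelial keratin regions, the regions of other keratins and of keratin partners (points, with the median as a bar), and for all 31850 regions (thick line from the 25th to the 75th percentile, thin line from the 5th to the 95th, median as a bar and dotted line). The keratin regions fall into 6 between -0.45 and 0.12 and 3 between -2.46 and -1.06.

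The 3 regions on chromosome 15 (Krt5, Krt8 and Krt18) had ratios between -0.45 and -0.34. The 6 on chromosome 11 ranged from -2.46 to 0.12, with a median of -0.67. At the 7 regions called in both libraries, the summits of the mutant and wildtype intervals were 0 to 96 bp apart, with a median of 16 bp, where interval values were given in bins of about 32 bp. Over 15365 regions with 1 interval of each library the median was 32 bp. The summits coincided at Krt5 and were farthest apart inside Krt10. The mutant interval was the longer one at 5 of the 7 regions, against 35.8% of those 15365 regions. At Krt5 the intervals were 591 bp in mutant and 405 bp in wildtype, and inside Krt10 866 bp in mutant and 631 bp in wildtype. The exceptions were Krt14, with 667 bp in mutant and 690 bp in wildtype, and Krt18, with 608 bp in mutant and 752 bp in wildtype.

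**Figure D4:**
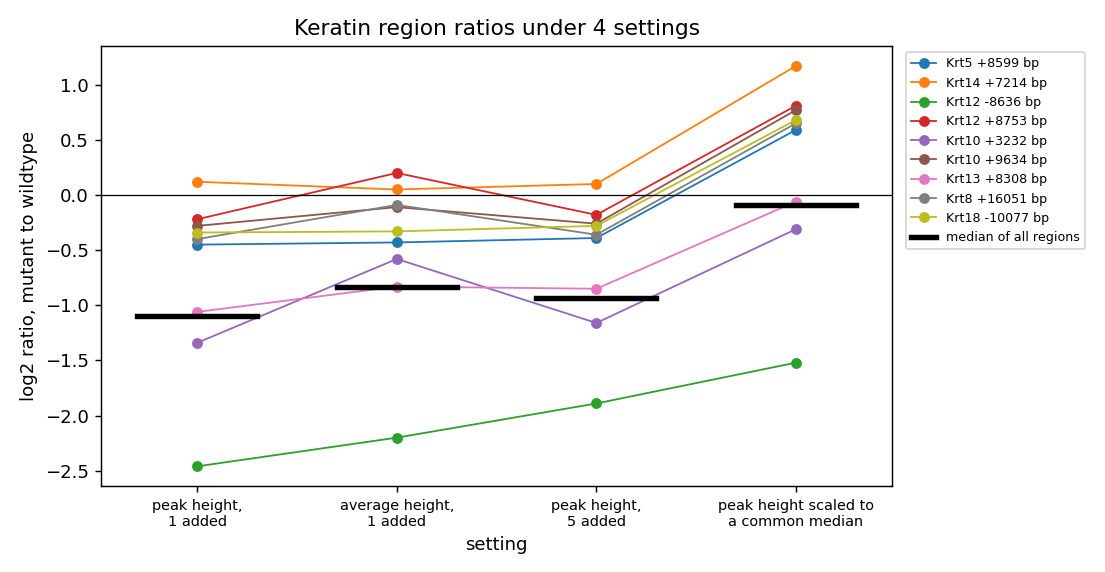
Log2 ratio of mutant to wildtype for each of the 9 keratin regions (lines) under 4 settings, with the median of all regions under the same setting as a black bar. The lines shift up together when the libraries are scaled to a common median, and the median of all regions shifts with them, from -1.10 to -0.09.

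The ratios depend on how the libraries are scaled, as the plot of ratios by setting shows. With the mutant heights multiplied by 2.1, which equalizes the medians of regions called in both libraries, the keratin median was 0.65 and that of all regions -0.09. Under that scaling 6 of the 9 regions were higher in mutant, and Krt14, at 1.17, was more than 2-fold higher, against 4.58% of all regions. The Krt12 upstream region was 2-fold lower under each of the 4 settings, with log2 ratios from -2.46 to -1.52. In each setting 7 of the 9 regions were above the median of all regions.

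The other keratin genes gave a mixed picture. Of 20 further type I keratins, 8 had an interval, 7 in mutant and 7 in wildtype. Krt9, Krt20 and Krt28 among them were assigned the shared regions described with Krt14, Krt12 and Krt10. Of all RefSeq coding genes, 51.6% had a mutant interval and 68.1% a wildtype interval. Over the 10 regions not shared with an epithelial keratin the median log2 ratio was -0.63, beside -1.10 over all regions. Of the 10, 3 were at least 2-fold lower and 1 at least 2-fold higher in mutant, against 59.0% and 0.414% of all regions. Heights were 14 in mutant and 52 in wildtype at Krt33a, a hair keratin, 13 in mutant and 42 in wildtype at Krt24, and 18 in mutant and 38 in wildtype at Krt25. At Krt28 they were 19 in mutant and 31 in wildtype, and at Krt222 13 in mutant and 22 in wildtype, neither called in mutant. These are each gene's highest region not shared with an epithelial keratin. Second such regions had 11 in mutant and 17 in wildtype at Krt24, and 18 in mutant and 19 in wildtype at Krt25. At Krt28 the second had 9 in mutant and 11 in wildtype, and at Krt222 12 in mutant and 7 in wildtype. The region 2-fold higher in mutant was at Krt23, named after its values were seen, with 16 in mutant and 5 in wildtype.

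Of 23 further type II keratins, 10 had an interval, 7 in mutant and 10 in wildtype. Of all RefSeq coding genes, 51.6% had a mutant interval and 68.1% a wildtype interval. Over the 11 unshared regions of these type II keratins the median log2 ratio was -1.27, beside -1.10 over all regions. Of the 11, 8 were at least 2-fold lower and 0 at least 2-fold higher in mutant, against 59.0% and 0.414% of all regions. The highest region, shared by Krt72 and Krt74 of the hair follicle, reached 35 in mutant and 74 in wildtype. Krt80 had 29 in mutant and 58 in wildtype, Krt81, a hair keratin, 20 in mutant and 55 in wildtype, and Krt84 33 in mutant and 38 in wildtype. Here too the heights are of each gene's highest region. Of these 21 regions of other keratins, 1 lay within 1 kb of a start, that of Smarce1, which shares it with Krt222. The remaining listed keratins with a region were Krt75, Krt76, Krt82 and Krt86, and Krt6a at the Krt5 region.

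A further 20 genes comprised those whose proteins anchor or accompany keratin filaments and those of epithelial transcription factors. An interval was assigned to 16 of them, 11 in mutant and 15 in wildtype. These counts were near the shares of all RefSeq coding genes, 51.6% in mutant and 68.1% in wildtype. The 43 regions of this list had a median log2 ratio of -0.87, beside -1.10 over all regions. Of the 43, 17 were at least 2-fold lower and 0 at least 2-fold higher in mutant, against 59.0% and 0.414% of all regions. Of the 43 regions, 8 lay within 1 kb of a gene start. Tchp, which encodes the keratin-binding protein trichoplein, had the region highest in wildtype and by the mean of both heights. It lay 50 bp past the Tchp start, with 41 in mutant and 110 in wildtype. Plec, the gene of the cytolinker plectin, reached 45 in mutant and 96 in wildtype. Jup, encoding plakoglobin, had 39 in mutant and 68 in wildtype, and Pkp1, encoding plakophilin 1, 31 in mutant and 57 in wildtype. Evpl, the gene of envoplakin, had 32 in mutant and 49 in wildtype. Heights given for these genes are of their highest region, which at Jup is shared with Hap1 and Gm10039. Of 12 marker symbols of stroma, vessel endothelium, leukocytes and muscle, 5 had an interval (Vim, Lum, Pecam1, Cdh5 and Acta2). Adgre1 and Emr1 among the 12 name the same gene. An interval was assigned to 2 in mutant and 5 in wildtype, beside 51.6% of RefSeq coding genes in mutant and 68.1% in wildtype. Of the 9 regions of these markers, 5 were at least 2-fold lower in mutant, near the share of all regions, 59.0%.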

How the data were processed

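SRF ChIP-seq libraries of mutant and wildtype cornea were compared, with genotypes from the sample titles. Per the submitters' processing notes, BWA was used and the build was mm10. No source used here states the interval caller, the threshold, how duplicates were handled or whether the libraries were scaled to each other. The authors deposited intervals per library, merged regions and a gene table. Their signal values are the peak value, called height here, and the average value, per the file headers. Gene lists, distances and CpG island counts are the authors'. Region coordinates are printed as deposited, with the base they count from unstated. Depth is unknown.

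Ratios are log2 values of mutant over wildtype height with a pseudocount of 1, so differences at low heights are understated. No test was run on 1 library per genotype. All 10 keratins and every region listing one are named, with up to 5 genes by height from each other list. The members and lists were chosen with earlier results of these data known. RefSeq genes were matched by identifier: 14458 of 16697 gene rows matched a gene with a curated coding transcript. The ratio steps were run on simulated data, judged only at regions high in wildtype and at another fold cut-off. That run did not cover the lower heights of many keratin regions. Alternatives were the average value, a pseudocount of 5, common scaling, and stricter choices of regions or intervals. Python 3.11.15, numpy 2.4.6, pandas 2.3.3 and matplotlib 3.10.9 were used.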

Additional observations from a re-analysis of the deposited data

How the results depend on the processing

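No paired analysis was possible because there were no replicates to pair, and none could be left out. With intervals within 1 kb of a gene start, 0 of the 10 keratins had an interval in mutant and 0 in wildtype, against 21.8% of all RefSeq coding genes in mutant and 33.4% in wildtype. Counting intervals of height 24, the median, or more, 3 had an interval in mutant and 5 in wildtype, where 25.0% of all RefSeq coding genes had one in mutant and 53.5% in wildtype. The median log2 ratio of -0.40 over the 9 regions was -0.33 with the average value and -0.36 with a pseudocount of 5. It was -0.34 over 7 regions called in both libraries, -0.42 over 6 regions at or above a height of 28, and -0.73 over 4 regions with no other gene. The highest region of each gene, an alternative chosen after seeing the data, gave -0.40 over 7 genes. Common scaling turned the median to 0.65, and the ratios at Krt10 downstream to 0.77, Krt12 downstream to 0.81, Krt5 to 0.59, Krt8 to 0.65 and Krt18 to 0.68; this multiplies every mutant height by the same factor. With the average value Krt12 downstream turned to 0.20; the cause was not tested. The count of regions 2-fold lower in mutant was 3 of 9, beside 59.0% of all regions. It was 1 with the average value (35.5% of all regions), 2 with a pseudocount of 5 (45.3%) and 1 with common scaling (9.3%), so the share of all regions fell as well. What depth limits at low heights could not be computed without read totals.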
